A study of Mus musculus with 9 samples.

Results

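The genes described here encode activin, its antagonists of the follistatin type and the receptors that activin uses. They are Inhba, Inhbb, Inha, Fst, Fstl3, Acvr1, Acvr1b, Acvr2a and Acvr2b, a set chosen with earlier results of these data known. Every probe whose RefSeq identifier matched one of these symbols was read on its own, which gave 12 probes of 9 genes among 41174 probes and 18327 named genes on the array. The cultures were cortical neurons from C57bl/6 mouse embryos of embryonic day 15, grown for 12 days. 3 arrays hold cultures exposed for 6 h to 50 mM KCl, which depolarises neurons, 3 hold cultures exposed for 6 h to 25 µM bicuculline (Bic), which blocks GABA-A receptors and so relieves the network of inhibition, and 3 hold untreated cultures (control). Nothing in the labels gives a genotype change, and all 9 arrays share the strain, the age and the time in culture. The labels do not say whether the replicates were separate cultures, so each p below measures only how these samples vary, which may reflect technical spread alone.

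Activin is a dimer of inhibin beta subunits and belongs to the TGF-beta family of secreted ligands. It binds a type II receptor (Acvr2a or Acvr2b), which recruits and phosphorylates a type I receptor such as Acvr1b, and the type I receptor then phosphorylates Smad2 and Smad3. Follistatin and follistatin-like 3 bind activin outside the cell and keep it from its receptors, and a dimer of the inhibin alpha subunit with a beta subunit, inhibin, opposes activin. In forebrain neurons Inhba is known as a gene induced by synaptic activity, and activin A is known for effects on neuronal survival and on synapses.

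Inhba and, on 1 of its 2 probes, Inhbb, the genes for the activin beta subunits, moved against control in opposite directions, so sequence before 1 listed start of each is shown. The windows are the 250 bases before that start in GRCm38.p6, written 5′ to 3′ on the gene's own strand, with capitals for a match to the MEF2 site. The RefSeq span of Inhba begins farther upstream, at base 16004256, so its window lies inside the gene. Sequence before that first base was not searched.
Inhba, chr13:16011601-16011850, plus strand: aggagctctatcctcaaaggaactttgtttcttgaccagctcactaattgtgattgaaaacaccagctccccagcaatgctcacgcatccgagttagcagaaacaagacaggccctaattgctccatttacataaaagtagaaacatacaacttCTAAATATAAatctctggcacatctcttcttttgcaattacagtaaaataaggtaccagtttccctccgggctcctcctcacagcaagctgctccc
Inhbb, chr1:119422249-119422498, minus strand: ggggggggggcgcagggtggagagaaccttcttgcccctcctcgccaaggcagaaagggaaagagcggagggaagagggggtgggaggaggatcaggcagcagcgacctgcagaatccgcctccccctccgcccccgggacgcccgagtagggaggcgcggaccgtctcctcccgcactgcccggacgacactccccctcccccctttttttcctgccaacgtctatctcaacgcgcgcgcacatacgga
The Inhba window had 43.2% G and C, and the Inhbb window 68%. 5 motifs linked to activity-dependent transcription were searched on both strands: the full cyclic AMP response element TGACGTCA, its core TGACG (which lies inside the full element), the AP-1 site TGANTCA, the CArG box and the MEF2 site. Among 32851 windows of the same length, 1.55% held TGACGTCA, 17.8% TGACG, 6.75% TGANTCA, 1.47% a CArG box and 2.92% a MEF2 site. The Inhba window held 1 match, the MEF2 site whose first base lies at position -96 from the start, and the Inhbb window held none of the 5. The windows of Inha, Fstl3, Acvr1, Acvr1b, Acvr2a and Acvr2b held none either, and Fst had no entry in the sequence table. A match describes letters and is not a shown binding site.

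All 12 probes were marked well above background on all 9 arrays, none was marked as an outlier or saturated, and all were tested. Values are given as scaled signal, the array's processed signal set so that its 75th percentile is 100, and changes as log2 differences of that signal. The 75th percentile itself lay between 1586 and 3087 intensity units and 65.0% to 75.9% of spots passed the software's test against background. Of 6 activity genes read as a check of the labels, Fos, Fosb, Bdnf and Nptx2 were higher in both treated groups (Fos by log2 4.47 in KCl and 2.76 in Bic cultures), Arc was higher in KCl and lower in Bic, and Egr1 was lower in both. The arrays lie on 3 slides: slide 1 holds Bic 1 and 2 with control 1 and 2, slide 2 holds KCl 1 and 2, Bic 3 and control 3, and slide 3 holds KCl 3 alone. Every member change called in the 3 comparisons kept its sign within each slide that holds both groups. The arrays of the groups compared did not overlap in any of these calls. The sign within a slide was thus fixed in advance and is no check on the slides.

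Against control, limma with Benjamini-Hochberg adjustment over all 27781 probes tested called 6 of the 12 member probes higher and 3 lower in KCl cultures, 75% of them, where 69.3% of all probes were called (36.3% higher and 32.9% lower). In Bic cultures 4 were higher and 3 lower, 58.3% of them, against 39.9% of all probes (17.4% higher and 22.5% lower). The KCl share of the members is near that of the whole array, so their count under KCl says little about them; the size and direction for each gene follow. The median log2 change of the 12 probes was 0.42 in KCl and -0.05 in Bic cultures, beside 0.05 and -0.02 over all probes tested.

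**Figure D1:**
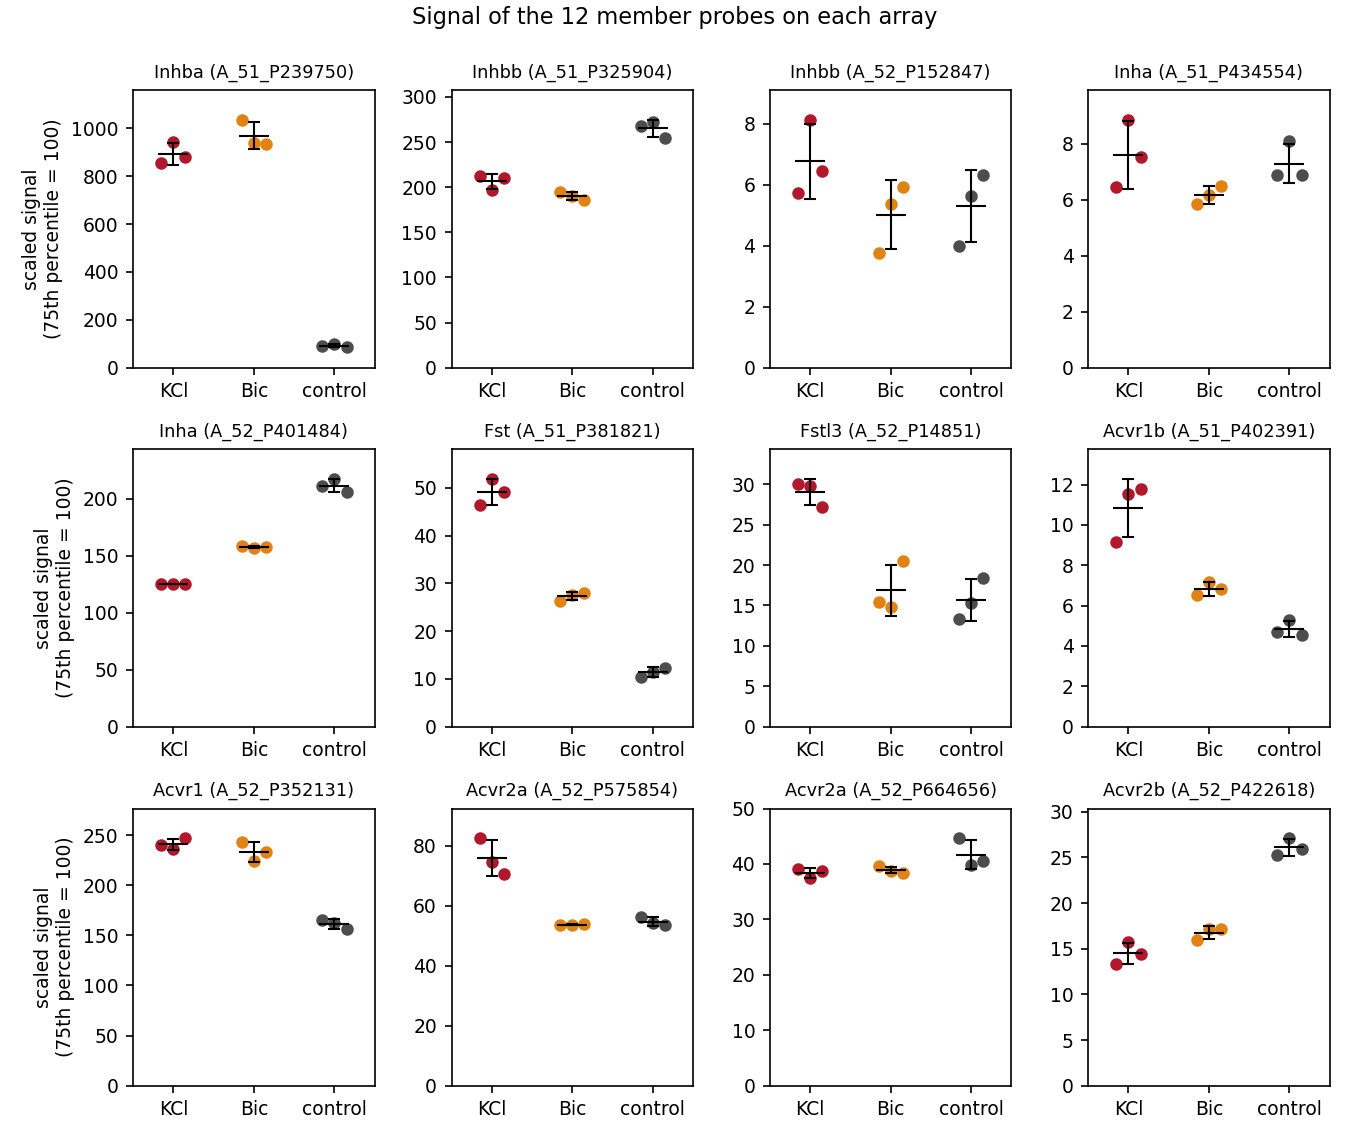
Scaled signal (vertical axis, 75th percentile of each array set to 100) of each of the 12 member probes on each KCl, Bic and control array (horizontal axis). Points are arrays and the bars give the mean and SD of 3 arrays; Inhba sits between 855.6 and 1034 on the KCl and Bic arrays and between 85.2 and 97.6 on the control arrays.

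Of the ligand subunits, Inhba, which encodes the beta A subunit of activin A, rose most. Its scaled signal was 855.6, 945.1 and 878.8 on KCl arrays, 1034, 939.6 and 936.6 on Bic arrays, and 90.2, 97.6 and 85.2 on control arrays. Every treated array was far above every control array, and the KCl and Bic arrays overlapped. The rise was 9.82-fold in KCl cultures (log2 3.30 ± 0.07, standard error, adjusted p = 1.6e-08, limma, n = 3 arrays per group throughout) and larger than 10-fold in Bic cultures (3.41 ± 0.07, adjusted p = 4.4e-08). Within slides the KCl change was 3.40 on slide 2, and the Bic change was 3.46 on slide 2 and 3.39 on slide 1. Among 14063 genes, each read by its brightest probe, this was the 43rd rise in KCl and the 19th in Bic cultures.

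Inhbb, which encodes the beta B subunit, was read by 2 probes. On A_51_P325904 the scaled signal was 212, 197 and 210.4 in KCl cultures, 194, 189.7 and 186 in Bic cultures, and 268, 272 and 255 in control cultures. Both treated groups lay below all control arrays. It fell by 0.36 on the log2 scale in KCl (adjusted p = 1.6e-04, limma) and by 0.48 in Bic cultures (adjusted p = 1.0e-04, limma), and with spike-in scaling the KCl change was -0.59. The other probe, A_52_P152847, ranged over 5.72 to 8.12 in KCl, 3.77 to 5.93 in Bic and 3.99 to 6.31 in control cultures. Its groups overlapped and it did not pass, with changes of 0.36 ± 0.23 in KCl and -0.08 ± 0.23 in Bic cultures (adjusted p = 0.19 and 0.82, limma).

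Inha, which encodes the alpha subunit that turns an activin beta chain into inhibin, also had 2 probes. A_52_P401484 gave 125.3, 125.5 and 125.0 in KCl, 158.6, 156.3 and 158.0 in Bic and 211.0, 217.1 and 206.0 in control cultures. The 3 groups did not overlap and the replicates of each lay close together. The log2 change was -0.75 ± 0.03 in KCl (adjusted p = 4.1e-07, limma) and -0.42 ± 0.03 in Bic cultures (adjusted p = 3.1e-05, limma), a fall in both. A_51_P434554 gave 6.44, 8.84 and 7.52 in KCl, 5.85, 6.18 and 6.47 in Bic and 6.90, 8.08 and 6.88 in control cultures. That probe did not pass (0.05 ± 0.12 in KCl, adjusted p = 0.70; -0.24 ± 0.12 in Bic, adjusted p = 0.15), so the fall of Inha and that of Inhbb each rest on 1 of 2 probes.

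Of the antagonists, Fst, which encodes follistatin, rose in both groups. Its scaled signal was 46.4, 51.8 and 49.1 on KCl arrays, 26.4, 27.6 and 28.0 on Bic arrays, and 10.4, 11.5 and 12.4 on control arrays. The 3 groups formed separate steps, KCl above Bic above control. The rise was 4.30-fold in KCl (log2 2.11 ± 0.07, adjusted p = 1.5e-07, limma) and 2.40-fold in Bic cultures (1.26 ± 0.07, adjusted p = 7.9e-06, limma). Among genes it was the 138th rise in KCl and the 169th in Bic cultures.

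Fstl3, which encodes follistatin-like 3, a secreted relative that also binds activin, gave 30.1, 29.8 and 27.2 in KCl cultures, 15.4, 14.8 and 20.5 in Bic cultures, and 13.3, 15.4 and 18.4 in control cultures. All KCl arrays were above all others, while Bic and control arrays overlapped. It rose 1.86-fold in KCl (log2 0.90 ± 0.15, adjusted p = 9.8e-04, limma), and on slide 2 the KCl change was 0.70. The Bic change of 0.10 had a 95% interval of -0.25 to 0.45 (adjusted p = 0.65, limma), so a change of that size in either direction was not resolved.

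Markers of several cell types also changed on the KCl arrays, where 6 of the 12 member probes were called higher and 3 lower. Of all genes 35.3% were higher and 35.5% lower in KCl, and 16.7% and 25.7% in Bic cultures. Of 11 markers of endothelial, mural and fibroblast cells, 9 were well above background on all arrays. The endothelial genes Pecam1 and Cdh5 were so on none. The 11 markers summed to a scaled signal of 4528 to 4993 in KCl, 2594 to 2832 in Bic and 2637 to 2756 in control cultures. Most of it came from the smooth muscle genes Tagln and Acta2. Under KCl 5 of the 9 tested were higher (Tagln 1.27, Kdr 0.67, Lum 0.36, Acta2 0.32 and Dcn 0.28 on the log2 scale) and Col1a1 was lower (-0.52); under Bic none was higher and 2 were lower. All 8 astrocyte markers were well above background on all arrays. They summed to 17038 to 17981 in KCl, 15079 to 15337 in Bic and 14975 to 16226 in control cultures. In KCl cultures 4 of them were higher and 2 lower, and in Bic cultures none was higher and 3 were lower. Of 6 microglia markers on the array 5 were well above background on all arrays. The 6 summed to 275 to 419 in KCl, 199.9 to 299 in Bic and 240 to 259 in control cultures. Of the 5 tested, 2 were higher and none lower in KCl, and none was called in Bic cultures. All 11 neuronal markers were well above background on all arrays, summing to 17521 to 18114 in KCl, 16833 to 17705 in Bic and 13950 to 15072 in control cultures. Most of that difference was Nefl, a neurofilament gene (geometric mean 4334 in KCl, 4642 in Bic and 1623 in control cultures), while Tubb3 was lower in KCl (-0.51) and Bic (-0.16); of the 11, 7 were higher and 1 lower in KCl, and 3 were higher and 3 lower in Bic cultures. Oligodendrocyte lineage markers summed to 2778 to 2886 in KCl, 2484 to 2597 in Bic and 2579 to 2681 in control cultures, with 4 of 6 tested higher and 2 lower in KCl, and 1 higher and 2 lower in Bic cultures. Markers of cycling cells and progenitors summed to 3361 to 3536 in KCl, 3360 to 3454 in Bic and 3460 to 3591 in control cultures. Of the 6 tested, 2 were higher and 3 lower in KCl, and 1 was higher and 3 lower in Bic cultures. Hes5 fell most, in KCl (-2.51) and in Bic (-0.76). Top2a and Sox2 were lower and Pcna higher in both, and Nes was higher in KCl (0.49). Marker sums and counts were read with the main percentile scaling alone. The median KCl change of all probes was 0.05 with that scaling. It ran from -0.18 with spike-in scaling to 0.29 with normexp before the percentile scaling. Whether the smaller marker changes and the order of the sums hold under other scalings was not tested. The part of these markers' cells in the member changes was not tested, and in such bulk RNA a change in the number of cells of a type and a change in RNA per cell cannot be told apart.

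Of the type I receptors, Acvr1b, which encodes the activin receptor ALK4, rose in both groups. Its scaled signal was 9.17, 11.5 and 11.8 in KCl, 6.51, 7.18 and 6.82 in Bic and 4.72, 5.27 and 4.53 in control cultures. The groups did not overlap and stood in the same order as for Fst. The rise was 2.23-fold in KCl (log2 1.16 ± 0.10, adjusted p = 2.7e-05, limma) and 1.41-fold in Bic cultures (0.50 ± 0.10, adjusted p = 0.0062, limma). With normexp background correction the KCl change lay at 1.49 after 75th percentile scaling and 0.56 after quantile normalization, and the Bic call was lost (0.27, adjusted p = 1, and 0.23, adjusted p = 0.052, limma).

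Acvr1, which encodes ALK2, a type I receptor used mainly by bone morphogenetic proteins that can also bind activin, gave 239.6, 236.1 and 246.8 in KCl, 243.5, 223.6 and 233.1 in Bic and 165.5, 162.2 and 156.2 in control cultures. Treated arrays all lay above control arrays, and KCl and Bic arrays overlapped. It rose 1.49-fold in KCl (log2 0.58 ± 0.04, adjusted p = 9.1e-06, limma) and 1.45-fold in Bic cultures (0.53 ± 0.04, adjusted p = 5.1e-05, limma). Over the settings tried the KCl change ran between 0.35, with spike-in scaling, and 0.61, and stayed called.

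Of the type II receptors, Acvr2b fell in both groups and the probes of Acvr2a disagreed. Acvr2b gave 13.4, 15.7 and 14.4 in KCl, 16.0, 17.1 and 17.2 in Bic and 25.3, 27.1 and 25.9 in control cultures. No treated array reached a control array. Its level was 0.554-fold of control in KCl (log2 -0.85 ± 0.06, adjusted p = 1.0e-05, limma) and 0.642-fold in Bic cultures (-0.64 ± 0.06, adjusted p = 1.7e-04, limma). Both calls were lost with normexp and the 75th percentile, where the change was -0.09 in KCl (adjusted p = 0.87, limma) and -0.56 in Bic cultures (0.77).

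Acvr2a, the other activin type II receptor, was read by 2 probes. A_52_P575854 gave 82.6, 74.8 and 70.8 in KCl, 53.7, 53.7 and 54.0 in Bic and 56.4, 54.2 and 53.5 in control cultures. All KCl arrays lay above the rest, and this probe rose in KCl (0.47 ± 0.06, 95% interval 0.34 to 0.60, adjusted p = 1.4e-04, limma), with a Bic change of -0.02 ± 0.06 (adjusted p = 0.79, limma). A_52_P664656 gave 39.1, 37.4 and 38.6 in KCl, 39.5, 38.8 and 38.4 in Bic and 44.7, 39.8 and 40.6 in control cultures. It did not pass in KCl (-0.12, 95% interval -0.23 to -0.01, adjusted p = 0.060, limma) or in Bic cultures (-0.10, adjusted p = 0.16, limma). The KCl intervals of the 2 probes do not overlap, so the array gives no one direction for Acvr2a. With scaling on spike-in probes the rise of A_52_P575854 was 0.25 (adjusted p = 0.065, limma) and A_52_P664656 was called lower (-0.34, adjusted p = 0.029, limma); with normexp and the 75th percentile the rise was 0.40 and did not pass (adjusted p = 0.066, limma). In all, A_52_P664656 was called lower in KCl in 6 of 20 settings. Among them were median scaling (-0.28, adjusted p = 0.013, limma) and quantile normalization (-0.13, adjusted p = 0.049, limma). Normexp with quantile normalization (-0.16, adjusted p = 0.038, limma) and the removal of control 2 (-0.15, adjusted p = 0.034, limma) gave the same call.

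Set directly against each other, KCl and Bic cultures differed at 7 member probes, 5 higher and 2 lower in KCl, 58.3% of them beside 60.6% of all probes (34.6% higher and 26% lower), so that share does not stand out. Fst was higher in KCl by 0.84 ± 0.07 (adjusted p = 3.2e-05, limma), Fstl3 by 0.80 ± 0.15 (adjusted p = 0.0025, limma) and Acvr1b by 0.66 ± 0.10 (adjusted p = 9.7e-04, limma). Acvr2a was higher in KCl on A_52_P575854 (0.50 ± 0.06, adjusted p = 1.6e-04, limma) and not on A_52_P664656 (-0.02, adjusted p = 0.73, limma). Inha was lower in KCl on A_52_P401484 (-0.33 ± 0.03, adjusted p = 5.8e-05, limma), while A_51_P434554 gave 0.29 (adjusted p = 0.062, limma) and was called higher without KCl 1 (0.40, adjusted p = 0.013, limma). The antagonists and Acvr1b thus stood higher in KCl than in Bic cultures, while no difference was called for the activin A subunit. Inhba had a difference of -0.12 with a 95% interval of -0.27 to 0.04 (adjusted p = 0.16, limma), and Acvr1 one of 0.05 with an interval of -0.05 to 0.15 (adjusted p = 0.37, limma). 

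Several of these direct comparisons turned on the processing. Inhba passed as lower in KCl under 4 of the scalings tried: -0.24 with the median, -0.25 with quantile normalization, -0.35 with spike-in probes and -0.27 with normexp and quantile normalization (adjusted p = 0.044, 0.016, 0.029 and 0.0072, limma). Inhbb, called higher in KCl on A_51_P325904 by 0.12 (95% interval 0.02 to 0.22, adjusted p = 0.045, limma), lost that call in most settings, among them the removal of control 1, control 2 or any Bic or KCl array but KCl 2, and changed sign in 3. Acvr2b, called lower in KCl (change -0.21, adjusted p = 0.022, limma), lost the call with slide as a block (-0.22, adjusted p = 0.11) and without KCl 1, KCl 3, Bic 2 or Bic 3 (changes -0.16, -0.21, -0.20 and -0.19), and was 0.48 with normexp and the 75th percentile. The calls of Acvr1b and of Acvr2a A_52_P575854 were also lost when normexp preceded the 75th percentile (1.21, adjusted p = 0.12, and 0.43, adjusted p = 0.078, limma), and that of the Acvr2a probe with spike-in scaling (0.27, adjusted p = 0.059). Sizes moved as well: with spike-in scaling Inha A_52_P401484 was at -0.56, Acvr2b at -0.44 and Acvr1b at 0.43, and with normexp and quantile normalization Acvr1b was at 0.33.

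**Figure D2:**
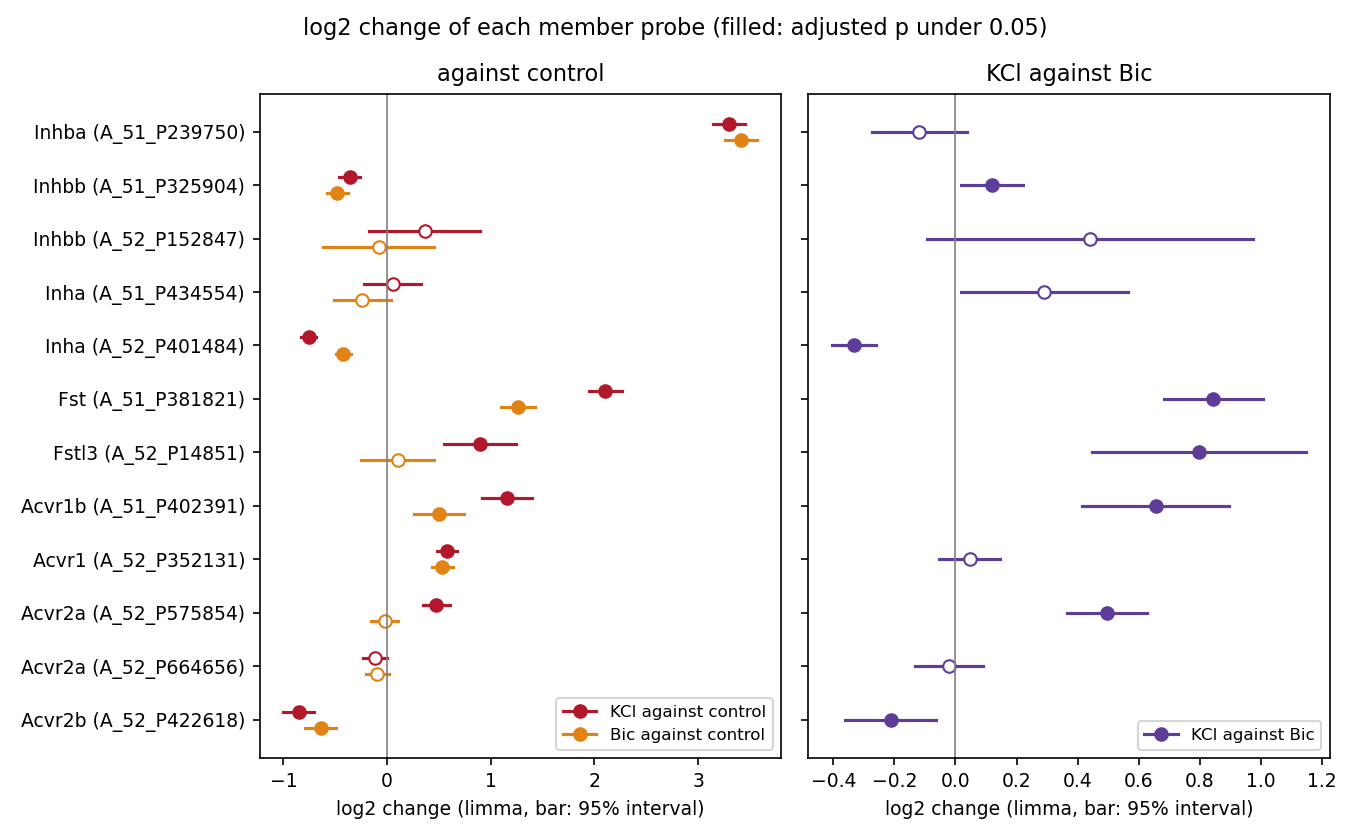
log2 change (horizontal axis) of each member probe (vertical axis) for KCl and Bic against control (left) and for KCl against Bic (right), from limma, with 95% intervals as bars and filled points for an adjusted p under 0.05. Inhba lies at 3.30 in KCl and 3.41 in Bic cultures, Fst at 2.11 and 1.26, and Acvr2b at -0.85 and -0.64.

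The other genes, called pathway genes here, came from 5 lists of 51 genes, of which 42 were tested, each by its brightest probe. The lists include wider members of the TGF-beta family such as Gdf15. Whether each listed gene acts in activin signalling was not tested. Against control, 17 were higher and 4 lower in KCl cultures (50%, median log2 change 0.18) and 9 were higher and 4 lower in Bic cultures (31%, median 0.01). Of all genes read this way 70.8% were called in KCl (35.3% higher and 35.5% lower) and 42.3% in Bic cultures (16.7% higher and 25.7% lower). The medians over all genes were 0.02 in KCl and -0.03 in Bic cultures. Fewer of these genes than of all genes were called in each comparison against control. With spike-in scaling the KCl calls were 8 higher and 9 lower, with median scaling 59.1% of them were higher, against 81.0% as read here, so the lean towards higher calls under KCl depends on the scaling.

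Among the receptors Acvr1c, which encodes ALK7, a type I receptor for nodal and some activins, changed most. Its scaled signal was 53.2, 51.1 and 53.9 in KCl, 61.3, 66.0 and 69.5 in Bic and 13.7, 15.9 and 14.8 in control cultures. The treated arrays were all above control, with Bic above KCl. It rose by 1.84 ± 0.07 in KCl (adjusted p = 2.2e-07, limma) and 2.15 ± 0.07 in Bic cultures (adjusted p = 4.0e-07, limma), and its other 2 probes rose as well (1.86 and 2.25 in KCl, 2.09 and 1.84 in Bic). KCl was lower than Bic on this probe (-0.31, adjusted p = 0.0044, limma) and on a second (-0.23, adjusted p = 0.0011, limma), and the other gave 0.41 and did not pass (adjusted p = 0.069, limma). Of the 8 receptors and co-receptors tested, 3 were higher in KCl, with the decoy receptor Bambi (0.55, or 0.33 with spike-in scaling) and the type II receptor Bmpr2 (0.42, lost at 0.19 with spike-in scaling), and 2 in Bic, with Tgfbr2 (0.22), a call lost in 7 of 22 settings (among them without control 1, control 3 or Bic 2), and none was lower in either.

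Among the 18 Smads and intracellular regulators tested, 7 were higher and 4 lower in KCl, and 2 were higher and 3 lower in Bic cultures. Smad7, an inhibitory Smad that is itself a target of TGF-beta family signalling, gave 91.3, 81.6 and 85.1 in KCl, 56.7, 56.2 and 58.6 in Bic and 32.4, 33.3 and 34.5 in control cultures. Its 3 groups stepped up without overlap, as for Fst. It rose by 1.36 ± 0.05 in KCl (adjusted p = 2.1e-07, limma) and 0.78 ± 0.05 in Bic cultures (adjusted p = 1.4e-05, limma). Smad6, the other inhibitory Smad, rose in KCl (1.05 ± 0.13, adjusted p = 1.5e-04, limma) and gave 0.27 in Bic (adjusted p = 0.14, limma). Smad3, which carries the activin signal, fell in Bic by 0.47 on the log2 scale (adjusted p = 2.3e-04, limma). With normexp and 75th percentile scaling that Bic change kept its size at -0.44 without passing (adjusted p = 0.30, limma). Scaled to the 75th percentile without normexp, the KCl change of Smad3 was -0.11 and did not pass (adjusted p = 0.079, limma). Another Smad3 probe did not pass in either (-0.41 in KCl, 0.13 in Bic, adjusted p = 0.68 and 0.92, limma). Smad2 and Smad4, the partner Smads of the same signal, did not pass in either (0.01 and -0.04 in KCl, 0.03 and -0.08 in Bic), while a second Smad4 probe was called lower in Bic (-0.12, adjusted p = 0.024, limma). The other Bic calls were Tgif1 (0.43, lost without control 2, control 3 or Bic 2), Ski (-0.28, lost with spike-in scaling and with normexp and 75th percentile scaling) and Pmepa1 (-0.19, lost without control 1, control 2, Bic 2 or Bic 3), and the KCl falls were Tgfbrap1 (-0.60), Pmepa1 (-0.35), Smurf1 (-0.30) and Magi2 (-0.21). With normexp and 75th percentile scaling the KCl calls of Tgfbrap1 (-0.32), Smurf1 (-0.09) and Magi2 (-0.29) were lost, and with spike-in scaling Smurf1, Magi2 and Pmepa1 moved to -0.53, -0.44 and -0.58. Another probe of Pmepa1 was called in the opposite direction (0.66 in KCl, 0.26 in Bic), as was another of Smurf1 (0.37 in KCl), so neither gene has a settled direction. Skil, Smurf2 and Synj2bp, whose brightest probes did not pass, each had another probe called higher in KCl (1.28, 0.78 and 0.71). In Bic cultures these probes of Smurf2 and Synj2bp were also called higher (0.15 and 0.34), as was the other Smurf1 probe (0.32). That of Skil did not pass in Bic (0.29, adjusted p = 0.18, limma). A further probe of Smurf2 and one of Synj2bp passed in neither comparison against control.

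Of 6 other ligands tested, Mstn (myostatin) and Nodal were higher in KCl and none was lower, while in Bic Gdf15 was higher (0.49 ± 0.06, adjusted p = 5.1e-04, limma; 0.43 and not passing with normexp and 75th percentile scaling) and Gdf1 lower (-0.14). Mstn gave 12.7, 12.4 and 12.0 in KCl, 5.91, 5.66 and 6.20 in Bic and 5.87, 6.26 and 5.96 in control cultures. Only the KCl arrays stood apart, with a rise of 1.03 ± 0.05 (adjusted p = 6.2e-07, limma), which was 0.56 with normexp and quantile normalization. The rise of Nodal (0.65, adjusted p = 0.024, limma) was lost in 7 of 21 settings, among them without control 1, control 2, KCl 2 or KCl 3. The fall of Gdf1 (adjusted p = 0.041, limma) was lost in 14 of 22 settings. Among them were the replicate block of the Bic and control arrays (adjusted p = 0.079, limma) and the removal of any array but control 1 or KCl 3. Of 6 genes tested from the list of other extracellular binders and inhibitors, Fstl4 and Fstl5 share a follistatin-like domain. Whether they bind activin was not tested. Fstl4 and Fstl5 were higher in KCl (0.81 and 0.62) and in Bic (0.42 and 0.30), and Fstl1 in KCl (0.25, lost in 4 of 21 settings). The Bic calls of Fstl4 and Fstl5 were lost with normexp and 75th percentile scaling (0.41 and 0.36, adjusted p = 0.058 and 0.12, limma) and that of Fstl5 also with spike-in scaling (adjusted p = 0.077, limma), where its KCl change was 0.39. Of 4 proprotein convertases, which cut the ligand precursors, Furin (0.19 in KCl and 0.17 in Bic) and Pcsk5 (0.46 and 0.60) were higher in both. A second Pcsk5 probe was lower in KCl (-0.46) and higher in Bic (0.70), the Pcsk5 call in KCl was lost with spike-in scaling (0.23, adjusted p = 0.098, limma), and the Furin call was lost in 5 of 21 settings in KCl and 9 of 22 in Bic (among them without any 1 control array, Bic 1 or Bic 3).

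**Figure D3:**
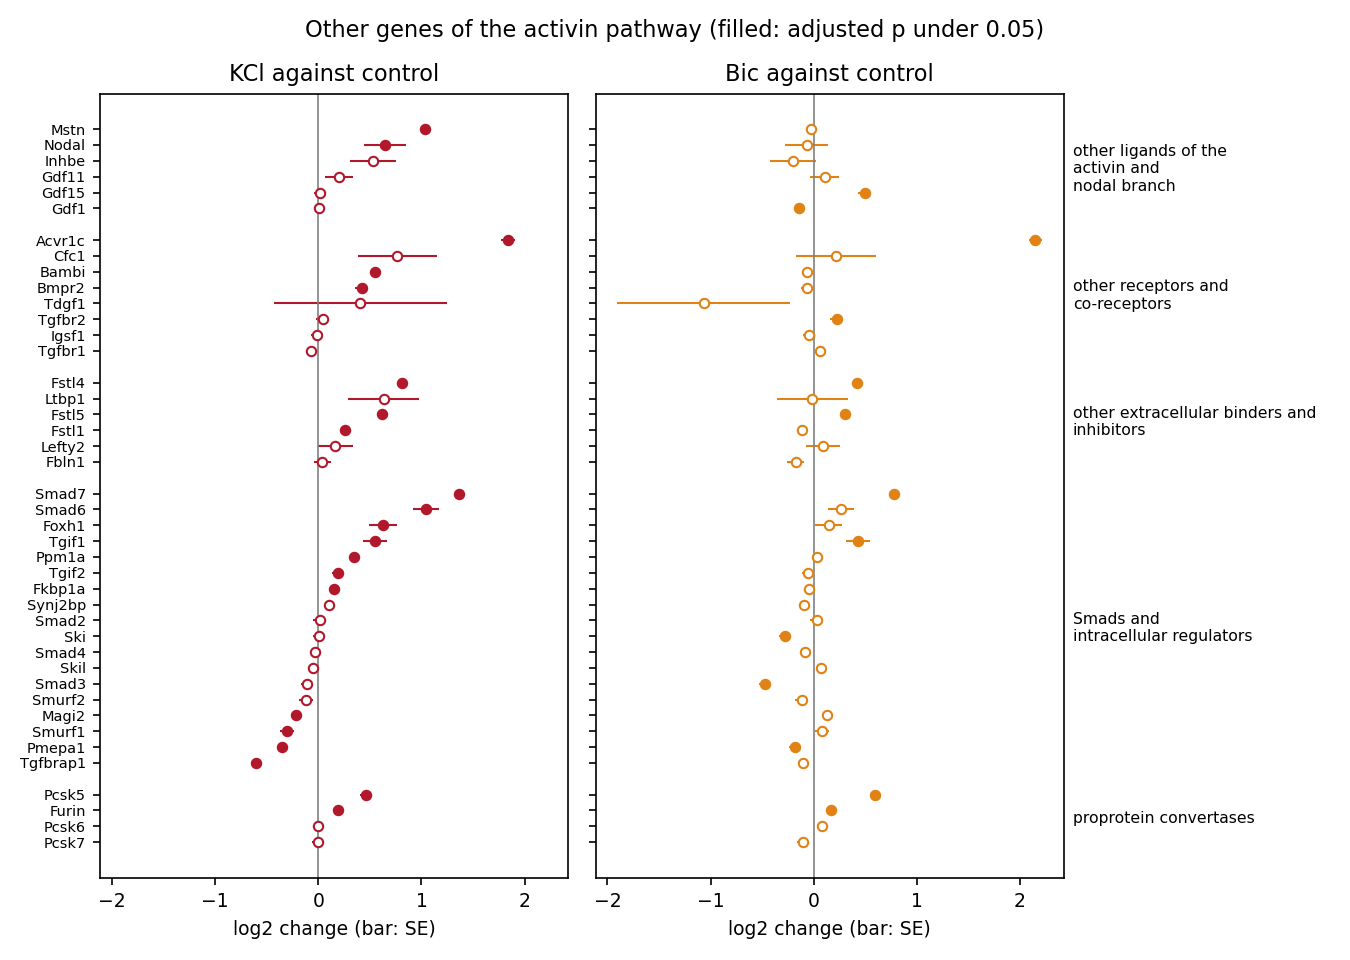
log2 change against control (horizontal axis, limma) with its standard error as a bar, of the 42 tested pathway genes, for KCl (left) and Bic (right), grouped by role (vertical axis). Acvr1c, at 1.84 in KCl and 2.15 in Bic, and Smad7, at 1.36 and 0.78, lie farthest to the right of all these genes; filled points have an adjusted p under 0.05.

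Inhba belongs to a group of survival genes known to be induced by nuclear calcium in hippocampal neurons. The other 9 of that group on the list were Atf3, Btg2, Bcl6, Gadd45b, Gadd45g, Ifi202b, Npas4, Nr4a1 and Serpinb2. Read by their brightest probes, all 9 were higher in KCl and in Bic cultures, with median log2 changes of 1.86 and 0.88. Of all genes read this way 35.3% were higher in KCl and 16.7% in Bic cultures. The Bic rise of Btg2 (0.41) depended on the probe. A_52_P31543 gave 0.08 in Bic and did not pass (adjusted p = 0.42, limma), while A_52_P35217 gave 0.45 and passed (adjusted p = 0.0016, limma). Serpinb2 gave 297, 294 and 309 in KCl, 251, 205 and 227 in Bic and 4.40, 3.39 and 3.75 in control cultures. Ifi202b was not well above background on any control array and was at least 8.68-fold higher in KCl and at least 1.81-fold higher in Bic cultures (adjusted p = 7.0e-06 and 6.1e-04, limma), a Bic call lost with normexp and 75th percentile scaling. Set against each other, 8 of the 9 were higher in KCl than in Bic cultures, where Inhba was not called. Of all genes 63.1% were called in that comparison, 34.9% higher and 28.2% lower in KCl.

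For the 3 members with a called change of at least 1 on the log2 scale, the genes with the most similar profile were found by the root mean square log2 difference over the 9 arrays, each probe set to its control mean, among 14024 other genes. Listed nearest to Inhba were Clca1, Bdnf (0.31), which encodes a neurotrophin, and Procr (0.32), the receptor of activated protein C. Bdnf rose by 3.19 in KCl and 2.90 in Bic cultures and Procr by 3.83 and 3.43, with Procr well above background on 2 of 3 control arrays. Clca1 was so on none, so its distance rests on control values below background and its place in the order is not settled; it was at least 6.68-fold higher in KCl and at least 4.80-fold higher in Bic cultures. Nearest to Fst were Lifr (0.060), the receptor of leukaemia inhibitory factor, Ssh2 (0.088), a phosphatase of cofilin, and Chrm3 (0.093), a muscarinic acetylcholine receptor. Lifr rose by 2.20 in KCl and 1.27 in Bic cultures, beside 2.11 and 1.26 for Fst. Nearest to Acvr1b were Avpi1 (0.092), Ppp1r15a (0.099), a regulatory subunit of protein phosphatase 1, and Arg2 (0.10), the mitochondrial arginase, of which Arg2 rose by 1.15 in KCl and 0.41 in Bic cultures, beside 1.16 and 0.50 for Acvr1b. With normexp and 75th percentile scaling the Bic calls of Clca1, Chrm3, Avpi1, Ppp1r15a and Arg2 were lost, with Chrm3 at 0.70 and Arg2 at 0.25. With normexp and quantile normalization the KCl changes of Procr and Chrm3 were 1.87 and 0.96. Closeness here describes 9 arrays of 3 groups.

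**Figure D4:**
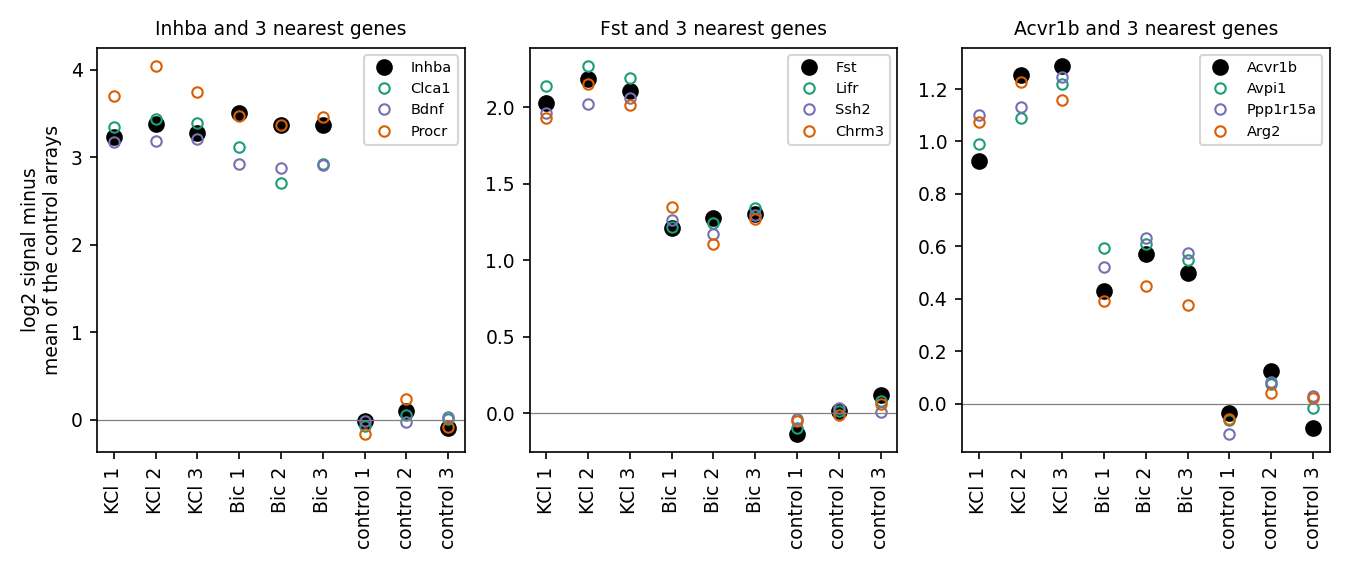
log2 signal relative to the control mean (vertical axis) on each KCl, Bic and control array (horizontal axis) for Inhba, Fst and Acvr1b, each with the 3 genes whose profile is nearest. The Fst panel shows Lifr, Ssh2 and Chrm3 close to Fst on every array, at distances of 0.060 to 0.093; the Clca1 points rest on control values not well above background.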

How the data were processed

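Single-colour Agilent arrays (Cy3, 100 ng RNA) of 3 KCl, 3 Bic and 3 control cultures were used, grouped by the labels. The deposited processed signal intensity came from Agilent Feature Extraction, 10.7.3.1 per the file headers and 10.5.1.1 per the submitters' processing notes, background-subtracted and not normalized between arrays. The software's flags for background, saturation and outliers, deposited per feature, set the filters. The series value table equalled the processed signal on all 45018 features.

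The intensity was set to log2 and each array's 75th percentile over 43379 non-control spots was subtracted. Outlier spots were left out and spots of a probe averaged. RefSeq identifiers, matched to the GRCm38.p6 gene table, named 26888 of 41174 probes; 14286 stayed unnamed. Probes tested (27781) were well above background on all arrays of at least 1 group and had values on 2 or more arrays per group. limma 3.58.1 (R 4.3.3) was fitted to all 9 arrays with group as the term (6 residual and 1.71 prior degrees of freedom), two-sided, with Benjamini-Hochberg adjustment over all probes and a threshold of 0.05. The number of arrays limits the precision; the median replicate SD over tested probes was 0.066 (log2). The fit was tested on simulated data. A group not above background on any array is given a bound, taken from the lowest signal marked well above background.

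The members, lists and tests were chosen with earlier results of these data known. Named genes are all members, the 2 largest called changes of each list in each comparison against control, and the 3 nearest profiles of members past a log2 change of 1; other list genes are named where a count of 5 or fewer singles them out, where another probe disagreed or, for Smad2 and Smad4, after their values were seen. The deviations of same-numbered Bic and control arrays had correlations of 0.34, 0.21 and 0.67. For number 2 a differently numbered array gave a higher value (0.29). Bic 3 and control 3 are also the only arrays of these groups on slide 2. Whether the labels' numbers pair Bic and control arrays is therefore not settled. KCl arrays did not pair with either. Alternatives were other scalings, normexp background correction, no dim-probe filter, outlier spots kept, 1 probe per gene, only the arrays compared, a slide or replicate block, a robust trended prior and leaving out each array.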

Additional observations from a re-analysis of the deposited data

How the results depend on the processing

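The changes against control of Inhba, Fst, Acvr1, Inhbb A_51_P325904 and Inha A_52_P401484, and the KCl rises of Fstl3 and Acvr1b, kept their sign and call in every setting tried, with Inhba at 3.07 to 3.38 in KCl and 3.36 to 3.47 in Bic cultures and Fst at 1.64 to 2.17 and 0.90 to 1.32. Over the 23 called member results, 459 of 490 alternative values kept sign and call, 27 lost the call and 4 changed sign. Those 4 were all in KCl against Bic: Inhbb A_51_P325904 with median scaling (-0.0031), spike-in scaling (-0.11) and normexp with the 75th percentile (-0.042), and Acvr2b with the last (0.48). Among the named pathway genes Furin in KCl changed sign with spike-in scaling (-0.035). The cause was not tested. Of 13 results that did not pass, 14 of 269 alternative values passed.

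Normexp with the 75th percentile lowered the calls most: to 6112 (KCl), 1029 (Bic) and 3063 (KCl against Bic) of all probes, beside 19246, 11095 and 16844, to 10, 3 and 4 pathway genes, and to 3 members in KCl against Bic. Spike-in scaling gave 4847 probes for Bic, and 6 and 15 pathway genes for Bic and for KCl against Bic. With 1 probe per gene, where fewer features are tested, the calls were 10100, 6242 and 9123. The share of calls that were higher moved with the scaling. Over all probes it was 43.6% for Bic, against 55.1% with spike-in probes and 66.0% with normexp and the 75th percentile. For KCl it was 52.5%, against 35.5% with the median, 42.1% with quantile and 29.5% with spike-in scaling. For KCl against Bic it was 57.1%, against 37.0%, 44.6% and 23.2% with the same and 45.2% with normexp and quantile. For members it was 66.7% in KCl (55.6% with spike-in probes) and 71.4% in KCl against Bic (57.1% with median or quantile scaling and 50.0% with spike-in probes), and for pathway genes in KCl against Bic 66.7%, against 26.7% with spike-in probes. The median change of all probes in KCl was 0.05, against -0.11 with median, -0.18 with spike-in and 0.29 with normexp and 75th percentile scaling.

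Leaving out 1 array at a time gave 9 to 10 called members in KCl, 7 to 7 in Bic and 5 to 7 in KCl against Bic; over all probes 17534 to 19038, 9163 to 11197 and 15050 to 16674; and for pathway genes 20 to 24, 9 to 14 and 22 to 28. With replicate number as a block in the Bic and control arrays (chosen after seeing the data), 4 members were higher and 3 lower as before. Beside them were 5186 and 6411 of all probes and 9 and 3 pathway genes. Gdf1 lost its call and no member or other named call changed. In all 9 arrays that replicate block gave 7 and 4 members in KCl, where Inhbb A_52_P152847 (0.36, adjusted p = 0.032) and Acvr2a A_52_P664656 (-0.12, adjusted p = 0.045) passed by limma; the numbers do not pair KCl arrays.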
